A study of Mus musculus with 10 samples.

Results

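The electron transport chain of the inner mitochondrial membrane passes electrons from complex I or complex II through ubiquinone to complex III, cytochrome c and complex IV, and complex V uses the resulting proton gradient to make ATP. The nuclear genes for the subunits of complexes II to V and for cytochrome c are described here. They were taken by gene name from the deposited count table (Sdha to Sdhd, Uqcr genes, Cyc1, Cycs, Cox4 to Cox8 genes and Atp5 genes, without names containing -ps). The names gave 51 of the 56748 rows of the table, of which 48 had enough counts to be tested among 14270 genes. The rule reads names only, and the set itself was chosen with earlier results of these data known.

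RNA-seq compared primary adipocytes from control mice (genotype Fam20c-flox) with those from Ad-Fam20c–KO mice (Fam20c-flox with Adipoq-Cre, in which the adiponectin promoter drives Cre in adipocytes). There were 5 libraries per genotype, all from the stromal vascular fraction of inguinal fat, the non-adipocyte cells of a subcutaneous depot, which were differentiated in culture before RNA extraction. The methods give male mice of 6 to 8 weeks and a differentiation of 6 to 8 days with isobutylmethylxanthine, dexamethasone, insulin and rosiglitazone, so every library of both groups had received these agents. Both genotypes carry the floxed allele, controls carry no Cre, and a Cre that switches on during differentiation can leave undifferentiated cells undeleted. Nothing in the labels says whether the 5 cultures of a group came from separate animals, and p-values then measure only the spread between these cultures.

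FAM20C is a kinase of the secretory pathway. In CPM, the counts of a gene scaled to library size with edgeR's TMM factors, Fam20c stood at 8.86, 10.3, 11.9, 9.09 and 11.2 CPM in control cultures 1 to 5 and at 6.65, 7.29, 7.11, 7.70 and 7.74 CPM in KO cultures 1 to 5. The log2 fold change was −0.49 (SE 0.0929, edgeR adjusted p = 0.0137), and the groups did not overlap. The edgeR adjusted p comes from the quasi-likelihood test, adjusted by the Benjamini-Hochberg method over all genes tested. Totals were 18949106 to 26237825 counts in the control libraries and 19883101 to 23291792 in the KO libraries. Control library 4 and KO library 1 stood apart on the first principal component (21.7 and 24.2, the other 8 from −14.8 to 8.59). The adipocyte markers were present in all libraries, with summed levels of 31563 to 32467 CPM in control and 33287 to 35285 CPM in KO libraries. Of the 10 markers, 0 passed the test, 9 had log2 fold changes above 0 (median 0.063) and 3 had an unadjusted edgeR p under 0.05. Of 12 endothelial markers, 10 were lower in KO adipocytes, with sums of 163 to 205 CPM in control and 68.6 to 105 CPM in KO libraries. Of 7 progenitor markers, 2 were lower by the test (Cd34 and Pdgfra), and 6 had log2 fold changes below 0 (median −0.31). The mean log2 CPM of the 7 was 4.15 ± 0.113 in control and 3.80 ± 0.124 in KO libraries (SD, n = 5), without overlap. In these bulk cultures, fewer cells of a type and less RNA per cell cannot be told apart. Over all genes, 44 (0.308%) were higher and 265 (1.86%) lower in KO adipocytes at an edgeR adjusted p under 0.05.

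Most of these subunits are needed in fixed proportions, and their genes are expressed in every nucleated cell with mitochondria. Several subunits of complex IV have a second gene whose product replaces the ubiquitous one in heart and muscle (Cox6a2, Cox7a1, Cox8b), lung (Cox4i2) or testis (Cox6b2, Cox7b2, Cox8c). Cox7a1 and Cox8b are also widely used markers of brown and beige fat, the heat-producing adipocytes in which mitochondria are abundant.

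The subunit genes lay slightly above control in KO adipocytes as a group, and 1 of them passed the test. Of the 48 tested, 45 had a log2 fold change above 0, where 49.7% of all genes tested did. Their median log2 fold change was 0.073, and that of all genes tested was −0.00085. Only Cox6a2, the muscle form of subunit 6A, passed the adjusted limit (1 higher and 0 lower, where 0.308% and 1.86% of all genes passed). At an unadjusted p under 0.05 the test gave 12 members higher and 0 lower, where it gave 4.43% of all genes higher and 7.46% lower. For 8 members each KO library lay above each control library (Sdha, Uqcrc2, Cox5a, Cox6a1, Cox6a2, Cox7a1, Atp5b and Atp5pb), an arrangement that 1.31% of all genes showed. The reverse was seen for 0 members and 2.66% of all genes. DESeq2's Wald test called 6 members higher and 0 lower (0.876% and 2.52% of all genes), and limma voom 3 higher and 0 lower (0.778% and 2.43%).

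Without the 8 tissue isoforms and second genes of complex IV, the processed pseudogene Cox6c2 among them, 42 members were tested. Their median log2 fold change of 0.073 is a level 5.17% above control. The 95% intervals of these 42 genes reached from −0.17 to 0.24, and each ended short of 0.5 on the log2 scale in both directions. The members are not independent of each other: within a group their log2 levels deviated together, with a median pairwise correlation of 0.403 across 861 gene pairs (84.6% of pairs above 0), over libraries that they share. Together the members took 2.19% ± 0.0721 (SD, n = 5) of all counts in control and 2.29% ± 0.0704 in KO libraries. Their shares ran from 2.12% to 2.29% in control and from 2.21% to 2.38% in KO, and the groups overlapped. The sum of their TMM-scaled levels ran from 21176 to 22430 CPM in control and from 22599 to 23624 CPM in KO libraries, and these ranges did not overlap. The summed adipocyte markers did not overlap either, as given above, and most of that sum is Fabp4, the fatty acid carrier (means of 20805 CPM in control and 22552 CPM in KO libraries, edgeR adjusted p = 0.387). On mean log2 CPM the tested members did overlap, with 7.89 ± 0.0374 in control and 7.96 ± 0.0354 in KO libraries (SD, n = 5). For them, 4 KO libraries lay above the highest control. The mean log2 CPM of the 10 adipocyte markers overlapped as well. It was 9.46 ± 0.0583 in control and 9.51 ± 0.0452 in KO libraries (SD, n = 5), with 1 KO library above the highest control. The part of these markers in the difference of the subunits was not tested. With control library 4 and KO library 1 both left out, 45 of 48 members still lay above 0, with a median of 0.082.

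**Figure D1:**
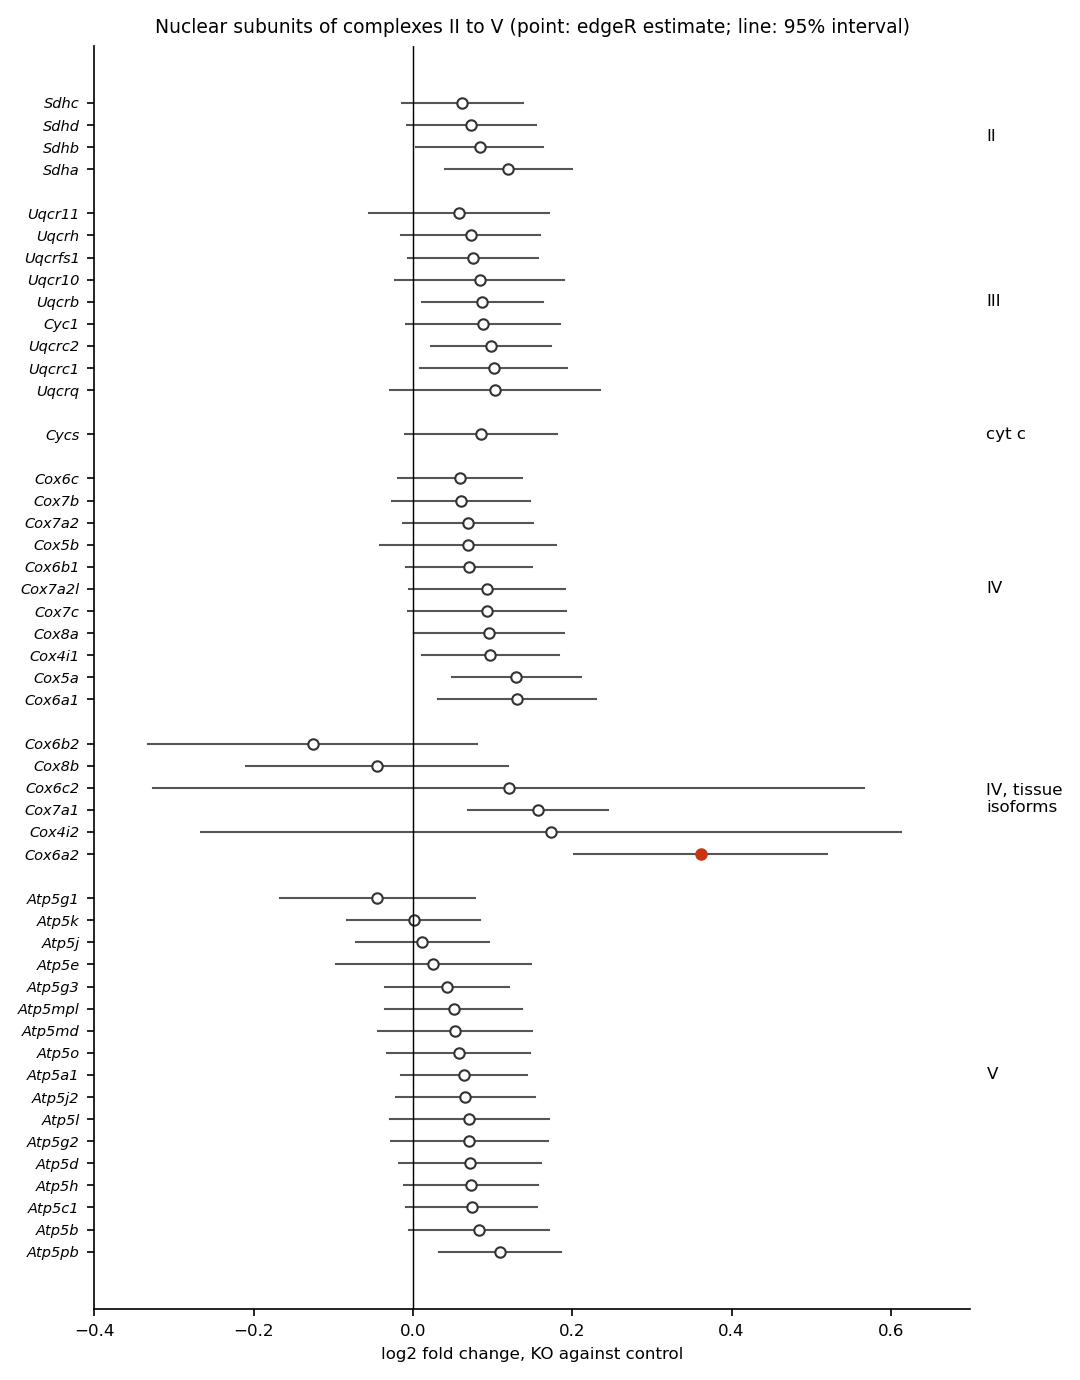
Log2 fold change of each tested subunit gene, KO against control (x axis), with its 95% interval from edgeR's quasi-likelihood fit (lines); genes are grouped by complex, and the filled point is the gene with an adjusted p under 0.05. Of 48 points, 45 lie to the right of 0, and the ubiquitous genes stay between −0.045 and 0.13, while Cox6a2 stands at 0.36.

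Motifs that the choice by name did not use were searched for upstream of the subunit genes. All but TATAAA were found in a larger share of their windows than of all windows. RefSeq promoter windows (GRCm38.p6, 250 bases before to 50 after each start) were found for 37 of the 51 rows, as 40 windows, and were searched on both strands. GCGCANGCGC, the site of NRF1, an activator of many respiratory genes, was in 25% of the members' windows and in 4.6% of all 32851 windows. CCGGAAG, the core site of ETS factors such as GABP, was in 32.5% and 8.86%. AAGATGGCG, a site of YY1, was in 5% and 1.4%, and TCAAGGTCA, a site of ERR receptors, in 5% and 0.423%. For each of these motifs the 5% is 2 of the 40 windows. CCAAT was in 55% and 37.4%, and TATAAA in 10% and 13.6%. These are letter matches in a window, not measured binding. They are shown for an accessory subunit of complex III (Uqcrh), both genes of subunit 8 (Cox8a and Cox8b), a ubiquitous and a muscle form of complex IV (Cox6a1 and Cox7a1) and a subunit c gene of complex V (Atp5g3). Each line gives, 5′ to 3′ on the gene's strand, the longest stretch among the 200 bases upstream of the RefSeq start that lies in no annotated exon, with motif matches in capitals.
Uqcrh: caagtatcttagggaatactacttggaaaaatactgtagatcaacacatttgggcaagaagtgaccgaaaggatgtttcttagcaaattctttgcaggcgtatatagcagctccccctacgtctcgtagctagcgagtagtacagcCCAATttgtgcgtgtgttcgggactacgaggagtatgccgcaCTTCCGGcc
Cox6a1: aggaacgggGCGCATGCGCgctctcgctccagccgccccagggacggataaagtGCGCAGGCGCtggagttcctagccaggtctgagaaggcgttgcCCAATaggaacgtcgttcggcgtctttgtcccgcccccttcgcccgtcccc
Cox7a1: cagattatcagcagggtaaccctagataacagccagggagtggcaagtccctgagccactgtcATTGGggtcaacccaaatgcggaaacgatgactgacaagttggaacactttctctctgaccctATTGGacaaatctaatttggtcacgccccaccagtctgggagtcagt
Cox8a: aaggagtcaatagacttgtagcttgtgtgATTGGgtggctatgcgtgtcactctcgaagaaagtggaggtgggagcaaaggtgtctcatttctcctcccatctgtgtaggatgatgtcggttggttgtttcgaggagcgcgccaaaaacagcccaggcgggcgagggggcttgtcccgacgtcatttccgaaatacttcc
Cox8b: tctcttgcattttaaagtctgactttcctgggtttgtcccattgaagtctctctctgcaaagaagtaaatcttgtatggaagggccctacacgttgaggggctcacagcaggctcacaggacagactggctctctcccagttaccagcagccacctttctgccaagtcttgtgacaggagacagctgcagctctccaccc
Atp5g3: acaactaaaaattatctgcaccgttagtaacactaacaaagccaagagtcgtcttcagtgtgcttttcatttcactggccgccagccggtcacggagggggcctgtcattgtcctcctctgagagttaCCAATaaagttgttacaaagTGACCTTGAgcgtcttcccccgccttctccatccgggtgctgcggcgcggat
The positions are chr4:116075072-116075268 on the minus strand for Uqcrh, chr5:115348982-115349129 on the minus strand for Cox6a1 and chr7:30183971-30184143 on the plus strand for Cox7a1. For Cox8a and Cox8b they are chr19:7217617-7217816 and chr7:140900447-140900646, both on the minus strand, and for Atp5g3 chr2:73911327-73911526 on the minus strand. The Uqcrh stretch holds CCAAT and an ETS site, the Cox6a1 stretch 2 NRF1 sites and CCAAT, and the Atp5g3 stretch CCAAT and an ERR site, none of which overlap. The stretches of Cox7a1 and Cox8a hold CCAAT on the reverse strand (ATTGG), at 2 places and 1 place, and the Cox8b stretch holds 0 of the 6 motifs. Outside the printed stretches, the full windows also held TATAAA for Cox8b, an ETS site for Cox8a and Cox6a1 and an NRF1 site for Atp5g3.

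Complex II, succinate dehydrogenase, links the citric acid cycle to the chain and is encoded by nuclear genes alone. All 4 of its genes had log2 fold changes above 0 (median 0.079), and 0 passed the adjusted limit. Sdha, the flavoprotein subunit that oxidizes succinate, stood at 1267, 1268, 1223, 1324 and 1295 CPM in control cultures 1 to 5 and at 1384, 1404, 1355, 1395 and 1390 CPM in KO cultures 1 to 5. Each KO library lay above each control library, and the means were 1275 ± 37.7 and 1386 ± 18.8 CPM (SD, n = 5). The log2 fold change was 0.12 (SE 0.0366, edgeR adjusted p = 0.150), and the 2-sided exact permutation test over all assignments of the 10 libraries gave an unadjusted p = 0.00794, the smallest it can give. Any gene whose groups do not overlap has that same p, so it adds nothing to the non-overlap and is not repeated for the other genes. DESeq2's Wald test (adjusted p = 0.00151) and limma voom (adjusted p = 0.0345) put Sdha past the limit, which edgeR did not. Sdhb, the iron-sulfur subunit, averaged 387 ± 14.2 CPM in control and 411 ± 8.91 CPM in KO libraries, with a log2 fold change of 0.084 (95% interval 0.0040 to 0.16, edgeR adjusted p = 0.386). For the membrane anchors, the values were 0.062 (−0.014 to 0.14, edgeR adjusted p = 0.547) for Sdhc and 0.073 (−0.0076 to 0.15, edgeR adjusted p = 0.483) for Sdhd. In all 3, the groups overlapped. The mean log2 CPM of the 4 genes was 8.97 ± 0.0424 in control and 9.05 ± 0.0136 in KO libraries (SD, n = 5), and the lowest KO library (9.04) was above the highest control library (9.01).

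Complex III, the cytochrome bc1 complex, carries electrons from ubiquinol to cytochrome c. All 9 of its nuclear genes had log2 fold changes between 0.057 and 0.10 (median 0.087), 0 passed the adjusted limit and 3 had an unadjusted p under 0.05. Uqcrc2, a core protein, was the one whose groups did not overlap, standing at 759, 764, 779, 791 and 794 CPM in control cultures 1 to 5 and at 823, 827, 825, 868 and 817 CPM in KO cultures 1 to 5. Its log2 fold change was 0.098 (SE 0.0350, edgeR adjusted p = 0.246); DESeq2 gave an adjusted p of 0.0271. The largest fitted change in the complex was that of Uqcrq, an accessory subunit, with 287 ± 15.7 CPM in control and 308 ± 27.4 CPM in KO libraries and a log2 fold change of 0.10 (SE 0.0608, edgeR adjusted p = 0.570). Only 3 of its 5 KO libraries exceeded the control mean, and the groups overlapped. The smallest was that of Uqcr11, another accessory subunit, at 0.057 (SE 0.0521, edgeR adjusted p = 0.765). The other 5 genes, for the core protein Uqcrc1, the Rieske iron-sulfur protein Uqcrfs1, the hinge protein Uqcrh and the accessory subunits Uqcrb and Uqcr10, had log2 fold changes of 0.072 to 0.10, and their groups overlapped. The gene of the heme protein cytochrome c1, Cyc1, had 590 ± 20.4 and 627 ± 33.3 CPM, with a log2 fold change of 0.088 (SE 0.0447, edgeR adjusted p = 0.483). Cytochrome c itself, the soluble carrier to complex IV, is encoded by Cycs, which stood at 642, 614, 666, 673 and 653 CPM in control cultures 1 to 5 and at 699, 721, 713, 678 and 636 CPM in KO cultures 1 to 5. KO libraries 1 to 4 lay above all control libraries and KO library 5 did not, and the log2 fold change was 0.086 (SE 0.0440, edgeR adjusted p = 0.486).

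**Figure D2:**
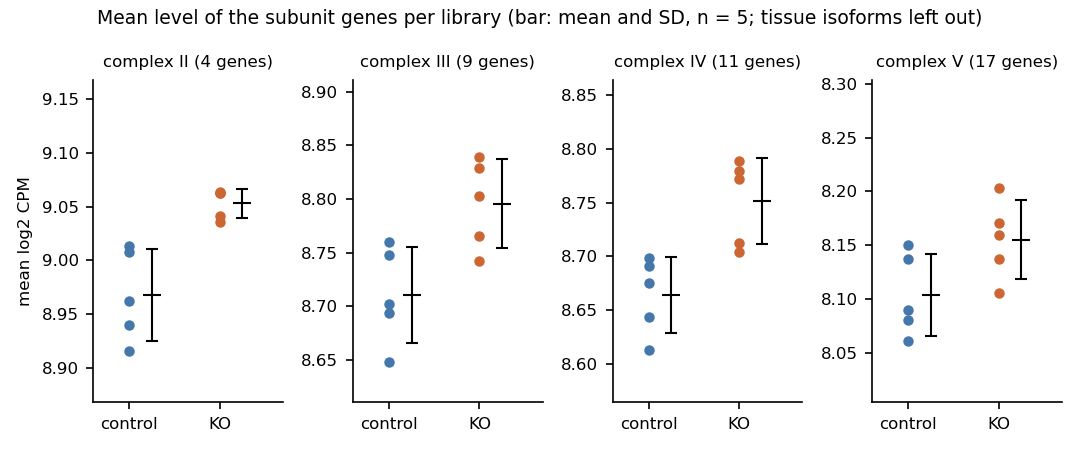
Mean log2 CPM of the subunit genes of each complex in each library (points), with the mean and SD of 5 libraries per group (bars); each panel has its own y axis of the same length. For complexes II and IV the 5 KO points lie above the 5 control points, and for complexes III and V the groups overlap, with 4 and 3 KO points above the highest control point.

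Complex IV, cytochrome c oxidase, passes electrons to oxygen. Its catalytic core is encoded in mitochondrial DNA, and the nuclear subunits surround it. The 11 ubiquitous nuclear genes had log2 fold changes between 0.059 and 0.13 (median 0.093). None passed the adjusted limit with edgeR, 4 had an unadjusted p under 0.05 (Cox5a, Cox6a1, Cox4i1 and Cox8a), and the mean log2 CPM of the 11 was 8.66 ± 0.0356 in control and 8.75 ± 0.0397 in KO libraries. Cox5a, which sits on the matrix side of the complex, stood at 301, 307, 304, 311 and 313 CPM in control cultures 1 to 5 and at 323, 325, 342, 357 and 332 CPM in KO cultures 1 to 5. The groups did not overlap, and the log2 fold change was 0.13 (SE 0.0373, edgeR adjusted p = 0.119). Of the 42 ubiquitous genes, Cox5a had the lowest p, and DESeq2 put it past the limit (adjusted p = 0.0212). Cox6a1, the ubiquitous form of subunit 6A, stood at 666, 712, 688, 673 and 702 CPM in control cultures 1 to 5 and at 726, 713, 741, 758 and 831 CPM in KO cultures 1 to 5. The 2nd control library (712 CPM) and the 2nd KO library (713 CPM) nearly touched, and the log2 fold change was 0.13 (SE 0.0460, edgeR adjusted p = 0.235). The other ubiquitous forms of paired subunits had log2 fold changes of 0.097 for Cox4i1 (edgeR adjusted p = 0.337), 0.070 for Cox6b1, 0.069 for Cox7a2, 0.060 for the X-linked Cox7b and 0.096 for Cox8a. Those of Cox5b, Cox6c and Cox7c lay between 0.059 and 0.093. Cox7a2l, which helps join complexes III and IV into supercomplexes, had 173 ± 5.06 and 185 ± 11.0 CPM and a log2 fold change of 0.093 (SE 0.0452, edgeR adjusted p = 0.457).

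Of the 8 tissue isoforms and second genes of complex IV, 6 were tested and 1 passed. Cox6a2, the heart and muscle form of subunit 6A, lies on chromosome 7 from 128205435 to 128206387 (GRCm38, minus strand) and stood at 8.29, 9.19, 8.65, 8.61 and 8.33 CPM in control cultures 1 to 5 and at 9.72, 10.6, 11.7, 11.4 and 12.0 CPM in KO cultures 1 to 5. Each KO library lay above each control library, and the means were 8.61 ± 0.360 and 11.1 ± 0.916 CPM (SD, n = 5), from 158 to 268 counts per library. Cox6a2 rose by 0.36 on the log2 scale (SE 0.0733, 95% interval 0.20 to 0.52, edgeR adjusted p = 0.0208), which is 28.5%. The call held in 4 of 10 omissions of a single library. It was lost when any one of control libraries 1, 3 and 5 or KO libraries 3, 4 and 5 was left out (edgeR adjusted p = 0.0527 to 0.0674). Log2 fold changes ran from 0.33 to 0.41 over the 10 omissions. All of Cox6a2 lies within the span of Itgad (128154376 to 128223816), an integrin gene on the opposite strand. The last 70 exonic bases of Cox6a2 (128205435 to 128205504) are also exonic in Itgad. No source used here states whether fragments were counted by strand, so some counts could belong to Itgad. Itgad averaged 218 ± 24.5 CPM in control and 220 ± 18.2 CPM in KO libraries, with a log2 fold change of 0.018 (edgeR adjusted p = 0.970).

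Cox7a1, the heart and muscle form of subunit 7A, was the other isoform whose groups did not overlap. It stood at 125, 134, 136, 142 and 141 CPM in control cultures 1 to 5 and at 156, 149, 153, 148 and 151 CPM in KO cultures 1 to 5. The lowest KO culture was above the highest control, and the means were 136 ± 6.70 and 151 ± 3.21 CPM. The log2 fold change of 0.16 (SE 0.0407, 95% interval 0.069 to 0.25) missed the limit with edgeR (adjusted p = 0.0775). It passed with DESeq2 (adjusted p = 0.0133), with limma voom (0.0318), with a GC trend removed (edgeR adjusted p = 0.0320) and without control library 4 (edgeR adjusted p = 0.0427). These were 3 of 11 alternatives and 1 of 10 omissions of a single library. In the others it missed the limit, with edgeR adjusted p up to 0.256 and 0.175. Cox8b, the heart and muscle form of subunit 8, stood at 53.2, 65.1, 61.5, 56.8 and 59.6 CPM in control cultures 1 to 5 and at 52.8, 49.2, 63.5, 59.2 and 62.5 CPM in KO cultures 1 to 5. Its groups overlapped throughout, with a log2 fold change of −0.045 (SE 0.0759, 95% interval −0.21 to 0.12, edgeR adjusted p = 0.905).

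The remaining isoforms were low. Cox4i2, the lung form of subunit 4, stood at 3.93, 4.39, 4.00, 8.17 and 4.78 CPM in control cultures 1 to 5 and at 7.39, 5.14, 5.11, 4.63 and 6.26 CPM in KO cultures 1 to 5. Its highest control value was in library 4, and the log2 fold change was 0.17 (SE 0.203, edgeR adjusted p = 0.838), or 0.41 without that library (edgeR adjusted p = 0.169). Cox6b2, the testis form of subunit 6B, averaged 6.97 ± 0.555 CPM in control and 6.40 ± 0.708 CPM in KO libraries, with a log2 fold change of −0.13 (SE 0.0951, edgeR adjusted p = 0.698). Cox6c2, which the annotation lists as a processed pseudogene of subunit 6C, had 1.03 to 2.02 CPM in control and 1.24 to 1.93 CPM in KO libraries (log2 fold change 0.12, SE 0.206, edgeR adjusted p = 0.906). Cox7b2 had 0 counts in all 10 libraries, and Cox8c had 1 count, in KO library 1, so the testis forms of subunits 7B and 8 were not detectable at this depth; a count of 0 allows up to 3 counts per library, or 0.114 to 0.158 CPM, for counting error only.

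**Figure D3:**
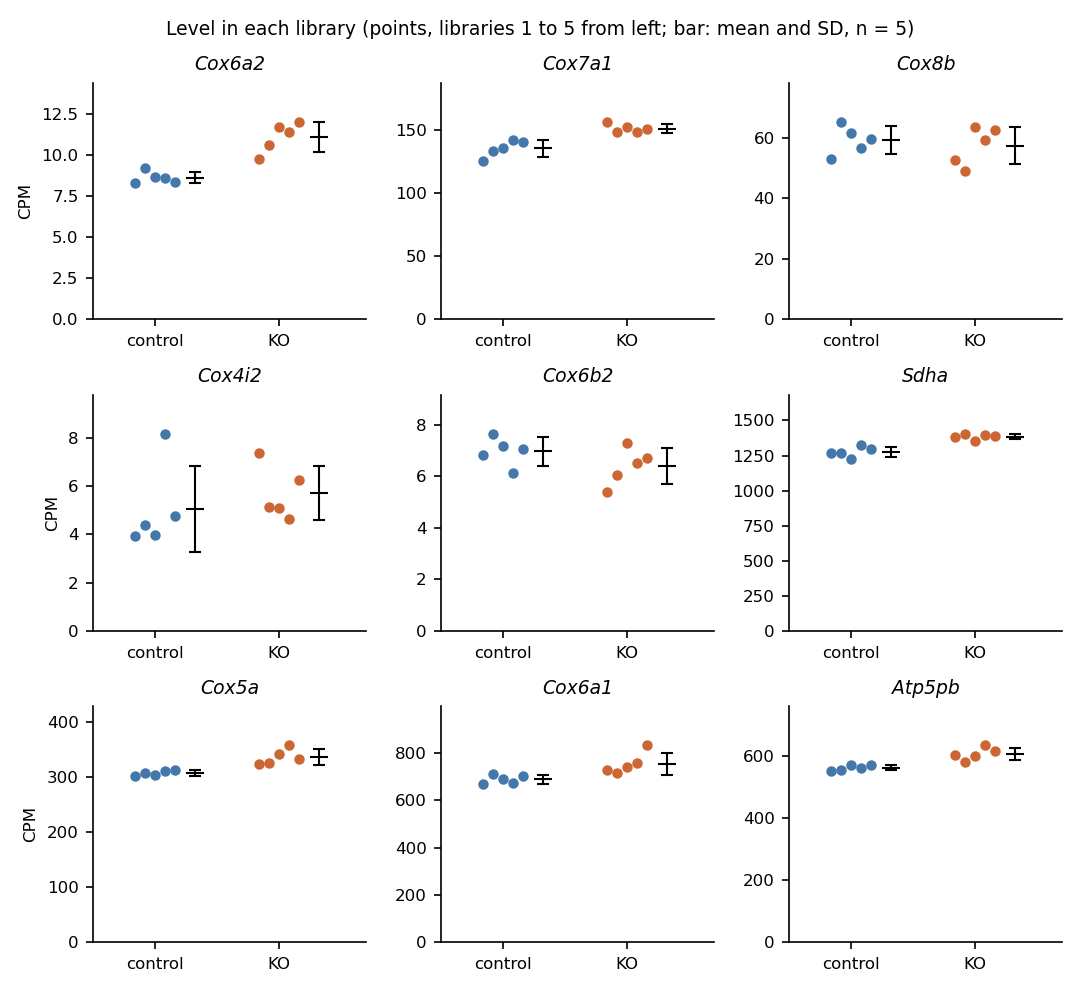
CPM of 9 named subunit genes in libraries 1 to 5 of each group (points, left to right), with the mean and SD (bars, n = 5); every y axis starts at 0. The groups do not overlap for Cox6a2, Cox7a1, Sdha, Cox5a, Cox6a1 and Atp5pb and overlap for Cox8b, Cox4i2 and Cox6b2.

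Of 11 skeletal muscle markers, 5 were tested and 0 passed, and Pax7 had 0 counts. The summed level of the 11 was 13.3 to 19.8 CPM in control and 10.3 to 20.1 CPM in KO libraries, with overlap, which is of the order of the Cox6a2 level. Acta1, skeletal muscle actin, was the highest of them, with means of 7.60 and 7.14 CPM. The part of these markers in the values of the muscle isoforms was not tested. Of 7 tested brown adipocyte markers, 1 was higher in KO adipocytes. This was Ucp1, the uncoupling protein, with 15.9 ± 5.62 CPM in control and 29.1 ± 3.96 CPM in KO libraries (log2 fold change 0.87, SE 0.187, edgeR adjusted p = 0.0284). Cidea had a log2 fold change of 0.59 (edgeR adjusted p = 0.0586), and Zic1, a marker of classical brown fat, was too low to test. The summed brown markers ran from 636 to 704 CPM in control and from 695 to 763 CPM in KO libraries, and most of that sum is Elovl3, a fatty acid elongase (means of 438 and 447 CPM, edgeR adjusted p = 0.947). The mean log2 CPM of the 7 markers was 5.08 ± 0.158 in control and 5.35 ± 0.0621 in KO libraries (SD, n = 5), with 4 KO libraries above the highest control and the groups overlapping. Their part in the values of Cox6a2 and Cox7a1 was not tested.

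The weight of each isoform within its pair was measured on levels per kilobase of exon, so that genes of different length can be compared. Cox7a1 supplied 42.8% ± 0.952 (SD, n = 5) of the Cox7a1 and Cox7a2 level in control and 44.3% ± 1.09 in KO libraries, and the groups overlapped. Cox8b supplied 16.3% ± 0.504 of the Cox8b and Cox8a level in control and 15.0% ± 1.28 in KO libraries, also with overlap. Cox6a2 supplied 1.28% ± 0.0413 of the Cox6a2 and Cox6a1 level in control and 1.49% ± 0.0887 in KO libraries, and each KO library (1.36% or more) lay above each control library (1.21% to 1.32%). Cox4i2 (1.04% and 1.09%) and Cox6b2 (0.691% and 0.604%) were minor in both groups, and their groups overlapped.

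**Figure D4:**
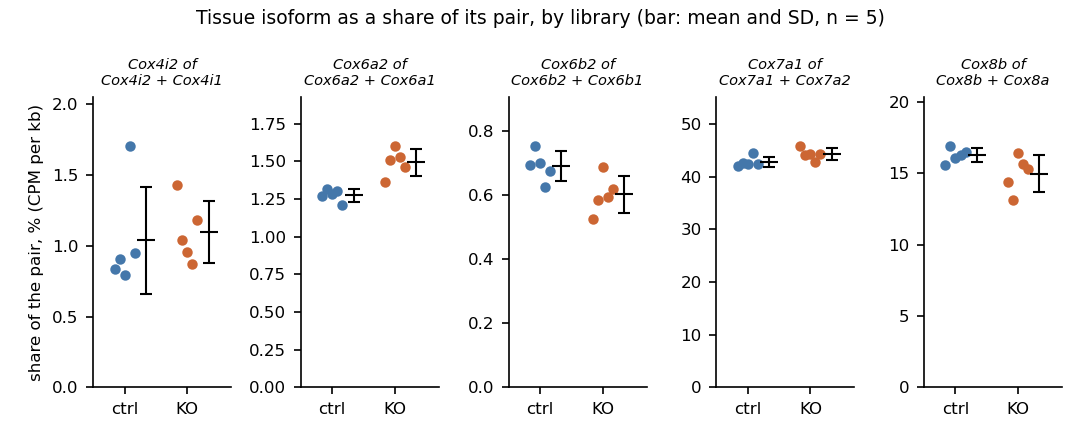
Level per kilobase of the tissue isoform as a percentage of the isoform plus its ubiquitous partner (y axis, from 0, each panel on its own scale) in each library (points), with the mean and SD of 5 libraries per group (bars). Only the Cox6a2 panel shows KO points that all lie above the control points.

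Complex V, ATP synthase, turns the proton flow through its membrane part into rotation that drives ATP synthesis in the F1 head. Its 17 tested genes had log2 fold changes from −0.045 to 0.11 (median 0.064), 16 of them above 0. None passed the adjusted limit with edgeR, and 1 had an unadjusted p under 0.05. By position in the enzyme, the medians were 0.072 for the 5 genes of the F1 head, 0.065 for the 4 tested genes of the stalk that holds the head in place, and 0.052 for the 8 genes of the membrane part. The mean log2 CPM of the 17 genes was 8.10 ± 0.0383 in control and 8.16 ± 0.0367 in KO libraries, and the groups overlapped.

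In the head, Atp5b, the catalytic beta subunit and the most abundant member, stood at 3803, 3808, 3863, 3879 and 3987 CPM in control cultures 1 to 5 and at 4031, 4029, 3991, 4250 and 4188 CPM in KO cultures 1 to 5. The groups did not overlap, although control library 5 (3987 CPM) came close to KO library 3 (3991 CPM), and the log2 fold change was 0.083 (SE 0.0406, edgeR adjusted p = 0.457). Atp5a1, the alpha subunit, had 1999 ± 46.2 and 2090 ± 23.0 CPM and a log2 fold change of 0.064. The other head subunits, gamma (Atp5c1), delta (Atp5d) and epsilon (Atp5e), had 0.074, 0.072 and 0.026, with overlapping groups. In the stalk, Atp5pb, subunit b, stood at 550, 555, 570, 562 and 571 CPM in control cultures 1 to 5 and at 603, 580, 600, 633 and 614 CPM in KO cultures 1 to 5. It had the largest change of the complex, 0.11 (SE 0.0355, edgeR adjusted p = 0.183), and its groups did not overlap; DESeq2 put it past the limit (adjusted p = 0.0312). Its exons overlap those of Wdr77 on the other strand. The other tested stalk genes were Atp5h, subunit d (0.073), Atp5j, coupling factor 6 (0.012), and Atp5o, OSCP (0.057). In the membrane part, the small subunits f (Atp5j2), e (Atp5k), g (Atp5l), DAPIT (Atp5md) and 6.8PL (Atp5mpl) had log2 fold changes from 0.00089 for Atp5k to 0.071 for Atp5l.

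Subunit c, which forms the rotating ring, is made from 3 genes that encode the same mature protein. Atp5g1 had the lowest change of the complex, with 92.4 ± 3.95 CPM in control and 89.6 ± 7.15 CPM in KO libraries and a log2 fold change of −0.045 (SE 0.0565, edgeR adjusted p = 0.856). Atp5g2 (0.071, SE 0.0455, edgeR adjusted p = 0.615) and Atp5g3 (0.042, SE 0.0359, edgeR adjusted p = 0.738) were not called either, and the groups overlapped for all 3. Per kilobase, Atp5g3 gave 69.3% of the subunit c level in control and 69.4% in KO libraries, Atp5g2 22.3% and 22.7%, and Atp5g1 8.38% and 7.89%. A second row named Atp5o, the gene of the stalk subunit OSCP, had 0 counts in all libraries; the other Atp5o row had 126 ± 4.36 and 131 ± 5.68 CPM.

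Levels per kilobase in control libraries differed more between members than between genotypes. They ran from 90.0 CPM per kilobase (Sdhc) to 354 (Sdhd) in complex II, from 157 (Uqcrq) to 447 (Uqcr10) in complex III, from 104 (Cox6c) to 980 (Cox6a1) among ubiquitous genes of complex IV and from 18.8 (Atp5g1) to 913 (Atp5b) in complex V, and Cycs had 191. The length is that of all annotated exons together, so genes with rarely used exons come out low. Across the 42 ubiquitous genes, the log2 fold change had a Pearson correlation of −0.080 with log2 exonic length and of 0.537 with the mean log2 CPM, as a description across genes that share libraries. Of the 51 rows, 50 were annotated as protein coding and 15 shared exonic bases with another gene. Many subunit genes have near-identical processed copies, and how fragments matching several places were counted was not given in the sources used here. The 12 dropped rows with -ps names held 192 to 277 counts per control library and 190 to 259 per KO library, 0.0458% of the members' counts.

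The assembly factors and regulators of the pathway gave no call. Most genes of the assembly list build the complexes without being part of them, and the list also holds the subunit Ndufa4 and the inhibitor Atpif1. Of its 39 tested genes, 29 had log2 fold changes above 0 (median 0.049), 0 passed the adjusted limit and 3 had an unadjusted p under 0.05. These were Ttc19, a complex III factor (0.21, edgeR adjusted p = 0.162), Cmc1, a complex IV factor (0.15, edgeR adjusted p = 0.126), and Atpaf1, which assembles the F1 head (0.16, edgeR adjusted p = 0.254). By complex, the medians were 0.014 for 4 genes of complex II, 0.0035 for 6 of complex III, 0.054 for 24 of complex IV and 0.072 for 5 of complex V. Ndufa4, a subunit that sits in complex IV under a complex I name, had a log2 fold change of 0.021 (edgeR adjusted p = 0.919), and Atpif1, the inhibitor of ATP synthase, −0.022 (edgeR adjusted p = 0.933). Of 12 regulators of mitochondrial genes, 10 had log2 fold changes above 0 (median 0.053) and 0 passed. Ppargc1a, a coactivator of mitochondrial biogenesis, stood at 38.3, 37.0, 29.2, 43.4 and 35.4 CPM in control cultures 1 to 5 and at 37.0, 45.6, 37.5, 43.2 and 45.8 CPM in KO cultures 1 to 5. The groups overlapped, and the log2 fold change was 0.19 (SE 0.0968, edgeR adjusted p = 0.484). The factors whose motifs were searched had log2 fold changes of 0.069 for Nrf1, 0.10 for Gabpa, 0.022 for Yy1 and 0.056 for Esrra, with 0 of the 4 past the limit.

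The 6 subunits of complexes III to V that mitochondrial DNA encodes spread far more between libraries than the nuclear ones. Their median log2 fold change was −0.13, with a median SE of 0.239 against 0.0406 for the nuclear members, and 0 passed. Their levels were far apart, with control means of 14800 CPM for mt-Co1 and 4984 CPM for mt-Cytb. Those of mt-Co3, mt-Co2, mt-Atp6 and mt-Atp8 were 21.7, 16.2, 13.6 and 3.64 CPM. The median lies between the values of mt-Co2 (−0.11) and mt-Co3 (−0.14), and why these rows were low was not tested. The catalytic subunit mt-Co1 stood at 15873, 13739, 16768, 20754 and 6866 CPM in control cultures 1 to 5 and at 19236, 18686, 16056, 6024 and 16811 CPM in KO cultures 1 to 5. Control library 5 and KO library 4 were low, 1 in each group, and the log2 fold change was 0.054 (SE 0.305, edgeR adjusted p = 0.979). Nuclear genes were not low in those libraries, where the mean log2 CPM of the 42 ubiquitous members was the highest of its group (8.54 in control library 5 and 8.60 in KO library 4). Of the genes named for nuclear subunits of complex I, the other entry to the chain, with Ndufa4 among them, 38 of 38 had log2 fold changes above 0, with a median of 0.081 beside 0.073 for the members described here. Of the 38, 1 passed the adjusted limit, 13 had an unadjusted p under 0.05 and 7 had all KO libraries above all control libraries. The one that passed was Ndufa6, an accessory subunit, with a log2 fold change of 0.18 (SE 0.0390, edgeR adjusted p = 0.0293). No test was made of a difference between the complexes.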

How the data were processed

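The authors prepared libraries with SMARTer and Nextera XT kits, mapped reads with STAR to GRCm38.p6 and counted fragments per gene with featureCounts on an Ensembl annotation. The deposited file holds unnormalized counts of 56748 genes in 10 libraries, with no replicates pooled. Low genes were dropped with filterByExpr at a minimum count of 10, TMM factors were computed, and genotypes were compared without covariates by the quasi-likelihood test of edgeR 4.0.16 (R 4.3.3), adjusted by Benjamini-Hochberg, with a limit of 0.05. The SE of a log2 fold change is its size over the root of the F statistic. A prior count of 2 entered log2 CPM. Positions and exonic lengths are those of GENCODE M21 on GRCm38. Exact permutation tests on log2 CPM were 2-sided.

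Alternatives were DESeq2 1.42.0 (the study's own kind of test), limma 3.58.1 voom with quality weights, other scaling and filters, removal of length and GC trends, a replicate block and each library left out. Leaving out control library 4 and KO library 1 together was added after the data were seen.

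Members and lists were chosen with earlier results of these data known. The genes named are Fam20c, members past the limit, the 4 Sdh genes, the highest and lowest fold change per complex, Cycs and Cyc1, the 5 lowest p-values, paired isoforms, subunit c genes, and of other lists any call, Ppargc1a, Ndufa4 and Atpif1; other names were chosen after their values were seen. Libraries of a group differed by more than sampling noise (chi-square per degree of freedom at least 3.52), and the biological coefficient of variation was 9.35%. Simulated counts of this comparison (14109 genes) gave back 93.6% of 94 genes with a 2-fold change and 66.0% of 97 with a log2 change of 0.5. False calls were 6.75% of 163. Changes as small as the members' median of 0.073 were not simulated, so the recovery at that size is not known.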

Additional observations from a re-analysis of the deposited data

Results flagged for a closer look

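Of 68 groups of 5 libraries examined for single members (34 genes in both genotypes), 1 held a library far from the others, where chance gives about 3.4. This was Cox4i2 in control library 4, with 8.17 CPM against 3.93 to 4.78 CPM in the other control libraries; the gap was 0.801 of the group's range. The same library had the highest mean log2 CPM of smooth muscle and pericyte markers of all 10 (4.57, the others 3.74 to 4.33), and KO library 1, the next highest for Cox4i2 with 7.39 CPM, had 4.22. Whether these markers bear on the value was not tested.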

How the results depend on the processing

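The count of members higher in KO, 1 at first, became 2 with a GC trend removed (Cox6a2 and Cox7a1), 3 with limma voom (with Sdha also) and 6 with DESeq2 (with Atp5pb, Cox5a and Uqcrc2 also), and 0 to 2 with single libraries left out; the 2 came without control library 4. With the replicate number as a block it was 0, Cox6a2 having an adjusted p of 0.0760, or 0.0752 with a length trend removed too. The count lower stayed at 0. Cox6a2 had log2 fold changes of 0.34 to 0.40 under 11 alternatives (adjusted p = 0.0033 to 0.076, 9 past the limit). With single libraries left out, Atp5g1 ranged from −0.076 to 0.0063 and Cox8b from −0.081 to 0.012, both above 0 without KO library 2 alone. Over all genes, the 44 higher became 21 with the block, 22 with block and length trend, 111 with voom (0.778%), 125 with DESeq2 (0.876%), 145 without control library 4 and KO library 1, and 19 to 119 with single libraries left out; the 119 came without control library 4. The 265 lower became 164 to 323 with single libraries left out. Assembly factors, regulators and mitochondrial genes went from 0 to 1 higher at most (Ttc19 without KO library 3, adjusted p = 0.047). The cause of these shifts was not tested. Of 525 log2 fold changes of named members under alternatives, 507 kept direction and side of the limit. For all of these members but Cox6a2, that side is short of the limit. The counts of calls are not among the 525. The members' median ranged from 0.052 to 0.091, and library totals alone moved the median of all genes to −0.023.

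Equal replicate numbers did not pair the libraries: deviations of same-numbered libraries correlated at −0.17, 0.089, 0.26, −0.25 and 0.034, and 1 of 5 pairs matched best. Depth limits Cox6c2 (22 to 54 counts per library) and Cox8c (1 count in all).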
